A study of Saccharomyces cerevisiae with 6 samples.

Results

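The translation elongation factors of budding yeast were followed on the arrays of a study of eEF1A overexpression. The members were the probe sets of *Saccharomyces cerevisiae* whose gene symbol in the chip annotation is, or lists, TEF1, TEF2, TEF4, EFB1, CAM1, EFT1, EFT2, YEF3, HEF3 or HYP2. The rule found 8 probe sets for these 10 genes, among 5784 probe sets that carry a gene name and 5726 genes that were tested. TEF1 and TEF2 share a probe set, and so do EFT1 and EFT2.

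Elongation factors carry the ribosome from codon to codon. In the cycle, eEF1A with bound GTP delivers aminoacyl-tRNA to the ribosome, the eEF1B complex exchanges the GDP left on eEF1A for GTP, and eEF2 moves the ribosome along the mRNA. Fungi also need eEF3, an ATPase that works on the ribosome after translocation, and eIF5A helps the ribosome past sequences at which peptide bonds form slowly. eEF1A is among the most abundant proteins of the yeast cell and also binds and bundles actin, and its effect on the cell when overexpressed is the question of the study.

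The comparison rests on 6 Affymetrix Yeast 2.0 arrays, 4 of control cells (replicates 1 to 4) and 2 of eEF1A cells (replicates 2 and 3). Control cells carried an empty multi-copy plasmid with the LEU2 marker, and eEF1A cells a plasmid of this kind with TEF1, placed by the methods under the constitutive GPD promoter. The labels give the control cells a normal and the eEF1A cells an enlarged size. All cultures grew at 30°C in synthetic medium lacking leucine from an optical density of 0.1 to one of 0.7, in log phase, and the strain, wild-type by the methods, has no name in the labels. The labels give 4 and 2 numbered samples and the methods biological triplicates, so p-values measure the spread between these samples, whatever their origin.

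The arrays of the 2 groups also stood apart in mating-type genes. All 8 markers of a cells passed the test as lower in eEF1A cells and all 6 markers of α cells as higher. The smallest change among them was 2.26 in size for a-cell and 3.21 for α-cell genes on the log2 scale. The log2 values of STE2, the α-factor receptor of a cells, lay between 12.56 and 12.65 on the control arrays and at 6.69 and 6.85 on the others, and those of STE3, the a-factor receptor of α cells, between 6.47 and 6.61 and at 11.42 and 11.13. Overexpression and mating type therefore cannot be told apart in any difference given here. Over all genes the correlation between arrays was 0.998 to 0.999 among control arrays, 0.997 between the eEF1A arrays and 0.975 to 0.976 across groups. The number of arrays limits the precision. A level is the deposited log2 value, a difference is the mean of eEF1A cells minus the mean of control cells on that scale, and a gene passed at an adjusted p under 0.05 from limma, a linear model with moderated variances.

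None of the elongation factors passed the test, although the comparison called many other genes. At the same threshold 27.5% of the 5726 genes were higher in eEF1A cells and 15.4% were lower, and 0 of the 8 elongation factor probe sets were called in either direction. At an unadjusted p under 0.05, which 51.5% of all genes met, the count of members was also 0. At the B-statistic above 1.5 that the methods use (8.59% of genes, 6.08% higher and 2.51% lower) it was 0 again, with member B-statistics between -8.10 and -5.90. The difference was negative for 5 probe sets and positive for 3, with a median of -0.02 beside 0.04 for all genes. Without HEF3, the size of the difference was at most 0.08.

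**Figure D1:**
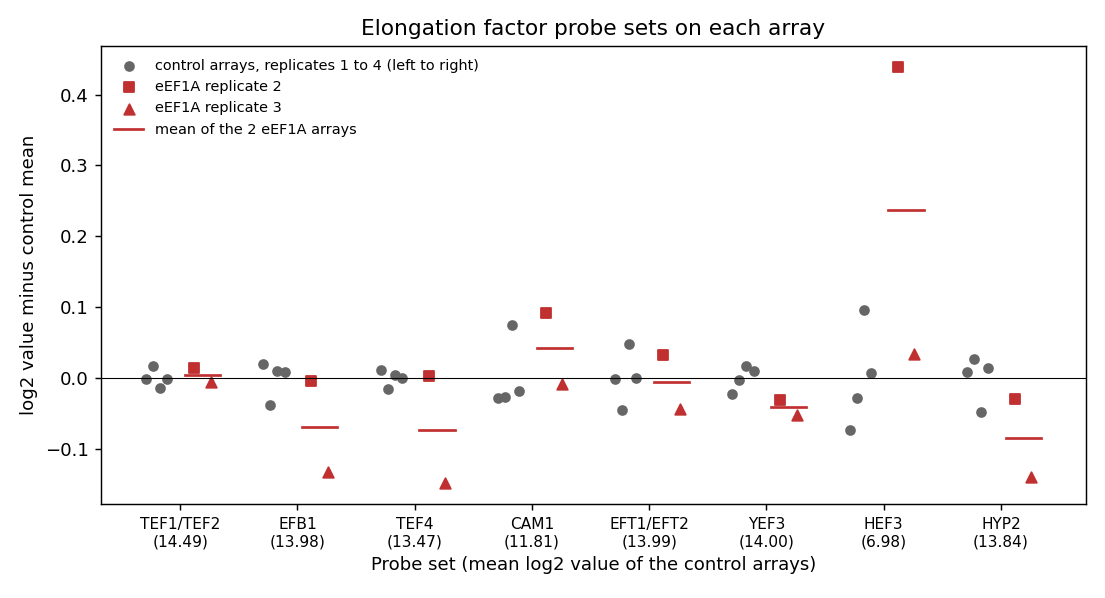
Log2 value of each elongation factor probe set on each of the 6 arrays, minus the mean of the 4 control arrays, with grey points for control replicates 1 to 4, red squares and triangles for eEF1A replicates 2 and 3, and a red bar for the mean of the eEF1A arrays. The triangle lies below the square for all 8 probe sets, and HEF3 has the widest gap between them.

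eEF1A itself is encoded by TEF1 and TEF2, 2 genes for the same protein, and the plasmid carries the first of them. Their shared probe set aligns to chromosome 2 at 477626 to 479002 and to chromosome 16 at 700590 to 701966 (October 2003 build, forward strand), with 100% and 99.85% of its bases matching. It thus reads RNA of TEF1 and TEF2 and any plasmid-borne RNA of the same coding sequence together. The level was 14.49, 14.51, 14.48 and 14.49 in control replicates 1 to 4. In eEF1A replicates 2 and 3 it was 14.51 and 14.49. Both eEF1A arrays lay within the range of the controls, so the groups overlapped.

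The difference of the TEF1 and TEF2 probe set was 0.00 (standard error 0.05, 95% confidence interval -0.10 to 0.11, adjusted p = 0.955 from limma), which is a fold of 1.00 with an interval of 0.932 to 1.08. A difference of 0.131 would have been needed to pass. By western blot, the paper reports more eEF1A protein in cells with its TEF1 plasmid. That is a measure of protein, and the probe set reads RNA, near the top of the scale. Whether eEF1A RNA rose in these cells cannot be told from it. The probe set held the rank of 2 among the 5726 genes on every array. At that rank the interval describes the deposited value and sets no bound on a change in RNA. LEU2, the marker on the plasmids of both groups, had levels from 14.35 to 14.40 in control cells and of 14.42 and 14.43 in eEF1A cells (difference 0.06, adjusted p = 0.352 from limma). Both eEF1A arrays thus lay above all controls for LEU2, as for 35.8% of all genes, by less than the test needed. Those of the TEF1 and TEF2 probe set lay among the controls. LEU2, with a mean of 14.38, also read near the top of the scale. The paper reports, with data not shown, that the TEF1 plasmid was kept at a much lower copy number than the empty one.

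The level of the eEF1A probe set stands at the top of the scale, where differences of all genes were small. The highest mean of any gene was 14.67. Of the 63 genes with a mean log2 value of 14 or more, 1 was called (1.59%, exact binomial interval 0.0402 to 8.53%, for counting error only). The median size of a difference among these genes was 0.02 and the 95th percentile 0.07. Between 13 and 14, 11.5% of 174 genes were called, with a median size of 0.06, and between 12 and 13 the share was 32.9% of 237 genes, with a median size of 0.12.

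Below a mean of 12 the called share no longer rose steeply. It was 44.6% of 1227 genes between 10 and 12, 46.4% of 2476 between 8 and 10 and 42.9% of 1549 below 8, and the median size went from 0.15 over 0.17 to 0.20. The median residual SD moved the same way, from 0.03 in the top class to 0.11 in the lowest. The elongation factors fell 1 in the top class, 5 between 13 and 14, 1 (CAM1) between 10 and 12 and 1 (HEF3) below 8. Most of them were therefore read where 1.59% or 11.5% of genes were called, and not at the overall share of 42.9%. Among those between 13 and 14, the EFT1 and EFT2 probe set (mean 13.99), YEF3 (13.98) and EFB1 (13.95) lay just under the top class.

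**Figure D2:**
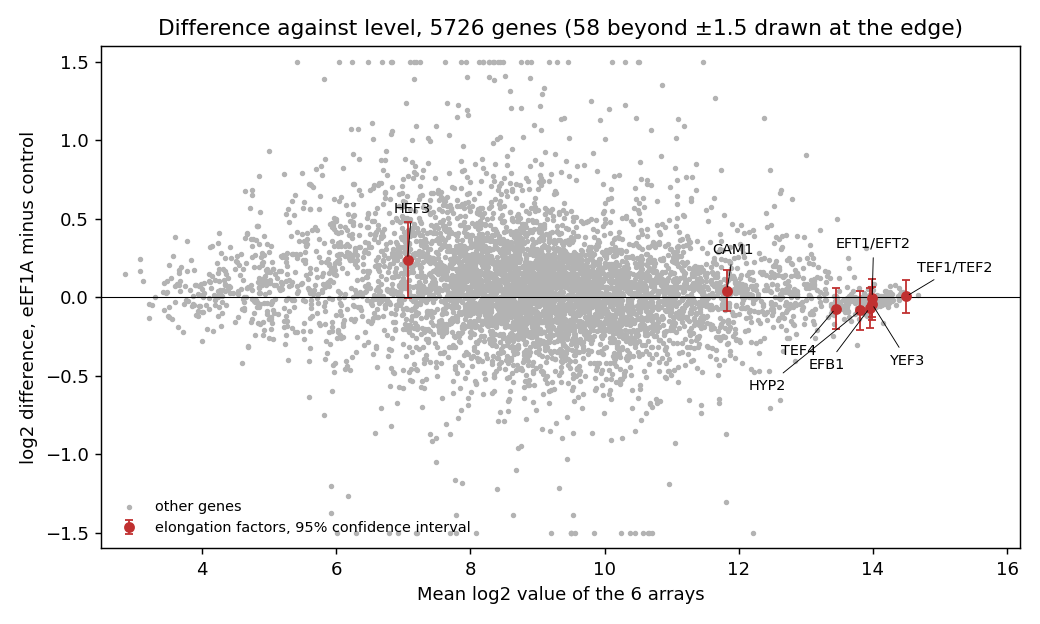
Difference between eEF1A and control cells (log2, vertical axis) against the mean log2 value of the 6 arrays (horizontal axis) for the 5726 genes in grey, with the 8 elongation factor probe sets in red and their 95% confidence intervals. The grey cloud narrows to the right, and 6 of the 8 members lie at a mean of 13 or more.

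The control transcripts added to each hybridisation, which do not come from yeast, gave smaller differences at higher levels on eEF1A replicate 3 but not on eEF1A replicate 2. bioB, bioC, bioD and cre are bacterial and phage transcripts that come in 1 mix at rising amounts. On eEF1A replicate 3, the probe sets of bioC, at control levels of 9.54 to 9.93, read 0.38 to 0.47 above the control mean. Those of bioD, at 11.25 to 12.75, read 0.28 to 0.48 above it. The cre probe sets, at 13.26 to 13.81, read only 0.11 to 0.16 above it. The mean over 4 probe sets was thus 0.43 for bioC, 0.37 for bioD and 0.12 for cre on the same array, while bioB, near the background, gave -0.06 to 0.31.

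These control transcripts are also read by an older generation of probe sets. On eEF1A replicate 3 the older sets gave means of 0.33 for bioC, 0.26 for bioD and 0.09 for cre, with 2 sets each, and so the same order. On eEF1A replicate 2 the newer sets lay close to the controls, with means of -0.07, -0.01 and 0.02. The older sets on that array read -1.28, -1.57 and -1.72, a size that grew with the level and so ran against the order on replicate 3, and the generations disagreed there for the same transcripts. Whether this touches the elongation factor probe sets of that array was not tested.

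**Figure D3:**
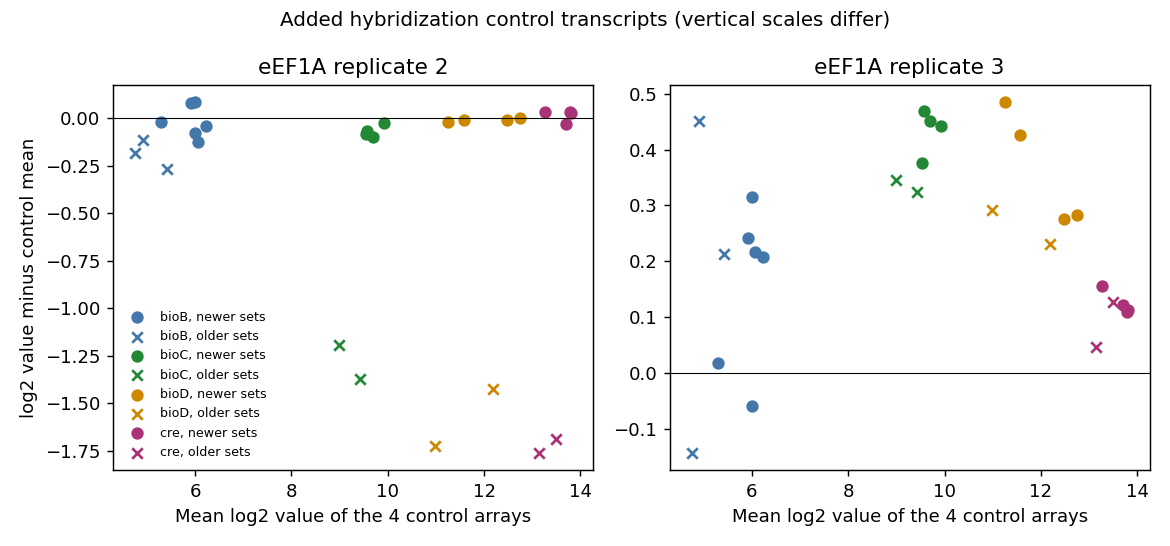
Log2 value of the probe sets for the added transcripts bioB, bioC, bioD and cre on eEF1A replicate 2 (left) and eEF1A replicate 3 (right), minus the mean of the 4 control arrays, against that control mean. Circles are newer and crosses older probe sets. On replicate 3 the shift is smaller for cre than for bioC, and on replicate 2 the older sets of bioC, bioD and cre lie more than 1 below the newer ones.

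The probe sets of a yeast gene also differed with their level, but they do not all read the same RNA. TDH1, which encodes a glyceraldehyde-3-phosphate dehydrogenase, was chosen after its values were seen, since apart from RPS29B it is the only gene in the top class with further probe sets. Its probe set that can also read related genes, as those of eEF1A and eEF2 do, had a mean of 14.39 in control and 14.38 in eEF1A cells (difference -0.01). The 4 other probe sets, with control means of 8.14 to 10.53, had differences of 1.21, 1.43, 2.00 and 1.63. Their largest adjusted p over all *S. cerevisiae* probe sets was 7.15e-05 from limma. How much of the signal of the shared probe set comes from TDH1 was not tested. Its difference therefore cannot be read as that of TDH1 at the top of the scale.

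The eEF1B complex returns eEF1A to its GTP form. EFB1 encodes the catalytic α subunit, and TEF4 and CAM1 each encode a γ subunit, of which CAM1 was also found as a calcium-binding and membrane-binding protein. None of the 3 passed. The levels of EFB1 and TEF4 were lower than all controls only on eEF1A replicate 3.

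EFB1 had levels of 13.995, 13.94, 13.99 and 13.98 in control replicates 1 to 4 and of 13.97 and 13.84 in eEF1A replicates 2 and 3. The first eEF1A array lay inside the range of the controls and the other below it. The difference was -0.07 (standard error 0.05, interval -0.19 to 0.06, adjusted p = 0.348 from limma), a fold of 0.954 (0.874 to 1.04). The gene lies on chromosome 1 at 142176 to 143162.

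TEF4 behaved alike. Its levels were 13.48, 13.45, 13.47 and 13.47 in control cells and 13.47 and 13.32 in eEF1A cells. Again eEF1A replicate 2 was among the controls and replicate 3 below them. The difference was -0.07 (standard error 0.06, interval -0.20 to 0.06, adjusted p = 0.331 from limma), a fold of 0.951 (0.869 to 1.04). Without eEF1A replicate 3 it was 0.00, so that array sets the sign. TEF4 lies on chromosome 11 at 282532 to 284096.

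CAM1 is the member with a mean between 10 and 12, a class in which 44.6% of genes were called. Its levels were 11.78, 11.78, 11.88 and 11.79 in control cells and 11.90 and 11.80 in eEF1A cells. Control replicate 3 stood above the other controls, eEF1A replicate 2 was above all of them, and eEF1A replicate 3 lay inside their range. The difference was 0.04 (standard error 0.06, interval -0.09 to 0.17, adjusted p = 0.585 from limma), a fold of 1.03 (0.940 to 1.13). It was -0.01 without eEF1A replicate 2. CAM1 lies on chromosome 16 at 464396 to 465643.

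The balance of the γ subunits was compared within each array, where a shift common to all levels of the array cancels. A shift that depends on the level does not cancel, and the mean was 11.82 for CAM1 and 13.44 for TEF4. CAM1 minus TEF4 was -1.70, -1.67, -1.59 and -1.68 in control cells and -1.57 and -1.52 in eEF1A cells, as differences of log2 levels. Both eEF1A arrays lay above all controls, by a mean difference of 0.11. With 4 against 2 arrays the exact two-sided permutation test has 15 arrangements and cannot give a p under 0.133, which is what this pair gave (adjusted p = 0.305 over 8 pairs).

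The other pairs set the eEF1B subunits against the probe sets of eEF1A and eEF2. The TEF1 and TEF2 probe set lay between 14.48 and 14.51 on all arrays. Subtracting it left nearly the difference of each subunit alone, so those pairs do not measure a balance with eEF1A RNA. EFB1 minus the TEF1 and TEF2 probe set differed by -0.07 and TEF4 minus it by -0.08 (exact permutation p = 0.267 for each), and CAM1 minus it by 0.04 (exact permutation p = 0.4). Against the EFT1 and EFT2 probe set, the differences were -0.06 for EFB1, -0.07 for TEF4 and 0.05 for CAM1 (exact permutation p = 0.267, 0.267 and 0.133). None could have passed, since the exact permutation test cannot give a p under 0.133 with these arrays. The groups did not overlap for CAM1 minus TEF4, CAM1 minus the EFT1 and EFT2 probe set and HEF3 minus YEF3, among the 8 pairs. For single genes, the groups did not overlap in 57.2% of all 5726, and the pairs share members.

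EFT1 and EFT2 encode the same eEF2 protein. Their shared probe set aligns to chromosome 4 at 1243218 to 1245746 and to chromosome 15 at 575098 to 577626, so the genes cannot be told apart. Its levels were 13.99, 13.95, 14.04 and 13.99 in control cells and 14.02 and 13.95 in eEF1A cells. The eEF1A values lay within the control range. The difference was -0.01 (standard error 0.05, interval -0.13 to 0.11, adjusted p = 0.935 from limma), a fold of 0.996 (0.916 to 1.08).

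YEF3 encodes the eEF3 that growing cells use. Its levels were 13.97, 13.99, 14.01 and 14.01 in control cells and 13.97 and 13.95 in eEF1A cells. It was the only member whose groups did not overlap, both eEF1A arrays being below all controls, with the higher eEF1A array at 13.968 and the lowest control at 13.975. Such a separation was seen in 57.2% of all genes, 35.8% above and 21.5% below. The difference was -0.04 (standard error 0.05, interval -0.15 to 0.07, adjusted p = 0.503 from limma), a fold of 0.972 (0.902 to 1.05). YEF3 lies on chromosome 12 at 636780 to 639914.

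HEF3, the paralogue of YEF3, is little used in growing cells and read low on the scale, above the background of 5.18 that 95% of the *Schizosaccharomyces pombe* probe sets stay under. Its levels were 6.91, 6.96, 7.08 and 6.99 in control cells and 7.42 and 7.02 in eEF1A cells. eEF1A replicate 2 stood above every control and eEF1A replicate 3 lay inside their range. The difference was 0.24 (standard error 0.11, interval -0.01 to 0.48, adjusted p = 0.103 from limma), a fold of 1.18 (0.996 to 1.39). Without eEF1A replicate 3, it was 0.44, and without eEF1A replicate 2 it was 0.03. The size of the difference thus rests on a single array. By the annotation, 5 of the 11 probes of HEF3 also match the opposite strand of a second locus, YNL013C. Relative to YEF3, HEF3 was 0.28 higher in eEF1A cells (exact permutation p = 0.133). HEF3 lies on chromosome 14 at 606315 to 609449.

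HYP2 encodes eIF5A of aerobically growing cells, the protein that carries the modified lysine hypusine. Its levels were 13.85, 13.87, 13.79 and 13.86 in control cells and 13.81 and 13.70 in eEF1A cells. eEF1A replicate 2 lay within the controls and replicate 3 below them. The difference was -0.08 (standard error 0.05, interval -0.21 to 0.04, adjusted p = 0.240 from limma), a fold of 0.943 (0.865 to 1.03). All 11 probes of HYP2 also match the opposite strand of a second locus, YEL034C-A. HYP2 lies on chromosome 5 at 85676 to 86149.

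One pattern was shared by the members. All 8 were lower on eEF1A replicate 3 than on eEF1A replicate 2, as were 82.2% of all genes and 93.7% of the 237 genes with a mean of 13 or more. The median of that gap was -0.11 over all genes and -0.07 over those 237. The median level of all *S. cerevisiae* probe sets was 9.12 on eEF1A replicate 2, 9.03 on eEF1A replicate 3 and 9.002 to 9.05 on control arrays. When each array was centred on this median, EFB1 (-0.13, adjusted p = 0.0319), TEF4 (-0.13, adjusted p = 0.0293) and HYP2 (-0.14, adjusted p = 0.0377) passed as lower in limma, and the signs of the CAM1 (-0.02) and TEF1 and TEF2 (-0.05) differences turned.

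That centring moved the median difference of all genes from 0.04 to -0.02 and the share of calls that were higher from 64.1% to 48.7%. Quantile normalization of the *S. cerevisiae* probe sets alone moved the share to 47.9% and called 0 of the members. Whether EFB1, TEF4 and HYP2 passed thus depended on how the arrays were scaled. The gap between the 3′ and 5′ probe sets of ACT1, a sign of RNA integrity, was 0.62 to 0.72 on control arrays and 0.72 and 0.76 on the eEF1A arrays, and its part in these values was not tested.

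Genes that modify elongation factors or work beside them were followed as 5 lists of 29 genes in all, each gene above the background. Of these, 6 were higher and 4 lower, beside 27.5% and 15.4% of all genes, and the median difference was -0.00 beside 0.04. The largest change was in ANB1, at 1.19, and the next in size was in JJJ3, at -0.47.

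ANB1 encodes the second eIF5A, which yeast makes when oxygen is low. Its levels were 7.46, 7.87, 7.40 and 7.49 in control cells and 8.84 and 8.66 in eEF1A cells, and the groups did not overlap. ANB1 rose 2.29-fold (difference 1.19, standard error 0.13, adjusted p = 2.50e-04 from limma). Its paralogue HYP2 had a difference of -0.08 near the top of the scale. Within an array, ANB1 minus HYP2 was 1.28 higher in eEF1A cells, a pair chosen after the values were seen (exact permutation p = 0.133, the smallest that the arrays allow). The annotation lists no other locus for the probes of ANB1.

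The enzymes that make hypusine on eIF5A changed little. DYS1, the deoxyhypusine synthase that takes the first step, rose 1.15-fold (difference 0.20, adjusted p = 0.0229 from limma), a call that was lost under 8 of 18 alternative settings. LIA1, the hydroxylase that takes the second, had a difference of -0.00 (adjusted p = 0.985 from limma).

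Diphthamide is a modified histidine of eEF2 and the target of diphtheria toxin. Of the 7 genes for its synthesis 3 fell and 0 rose, where 15.4% of all genes were lower and 27.5% higher, and the median difference was -0.10 beside 0.04 for all genes. JJJ3, a J-protein also known as DPH4, had levels of 9.18 to 9.26 in control cells and of 8.80 and 8.70 in eEF1A cells, both below all controls. It fell to a fold of 0.722 (difference -0.47, standard error 0.06, adjusted p = 3.86e-04 from limma). DPH1, which takes part in the first step, fell to 0.800 (difference -0.32, adjusted p = 0.00293 from limma), with levels of 10.09 to 10.15 in control cells and 9.86 and 9.71 in eEF1A cells. KTI11, the electron donor to that step, also serves the Elongator complex in tRNA modification, and fell to 0.851 (difference -0.23, adjusted p = 0.0225 from limma).

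Of these calls, that of JJJ3 held under all 18 alternatives, that of DPH1 was lost under 2 (the B-statistic and the replicate block, adjusted p = 0.0675 from limma) and that of KTI11 under 7. DPH5, the methyltransferase of the pathway, had a difference of 0.01 (adjusted p = 0.895 from limma) and DPH2, the partner of DPH1, one of -0.10 (adjusted p = 0.192 from limma). The probe set of eEF2 itself had a difference of -0.01.

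Methyltransferases modify eEF1A, eEF2 and eEF3. Of the 7 genes 2 rose and 1 fell, with a median of -0.03, and the called share was that of all genes (42.9%). EFM3, which methylates eEF2, rose 1.36-fold (difference 0.44, adjusted p = 0.0014 from limma), and EFM5, which methylates eEF1A, rose 1.21-fold (difference 0.28, adjusted p = 0.00278 from limma). EFM2, which also acts on eEF2, fell to a fold of 0.773 (difference -0.37, adjusted p = 0.00807 from limma). EFM4, with eEF1A as its substrate, had a difference of -0.15 (adjusted p = 0.0846 from limma) and EFM7, another eEF1A methyltransferase, one of -0.03 (adjusted p = 0.641 from limma).

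Of the 8 chaperones and partners of elongation factors 1 was higher, with a median difference of 0.00. GCN20, an ABC protein that activates the kinase Gcn2 on the ribosome, rose 1.13-fold (difference 0.18, adjusted p = 0.0485 from limma), a call lost under 9 of 18 alternatives. STM1, which binds idle ribosomes together with eEF2, had a difference of 0.02 (adjusted p = 0.832 from limma) and NEW1, an ABC protein related to eEF3, one of 0.00 (adjusted p = 0.956 from limma). Among the 4 elongation factors of mitochondria, MEF2 rose 1.31-fold (difference 0.39, adjusted p = 0.00351 from limma). TUF1, the mitochondrial counterpart of eEF1A, had a difference of -0.01 (adjusted p = 0.925 from limma), and MEF1, the translocase, one of -0.07 (adjusted p = 0.563 from limma).

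**Figure D4:**
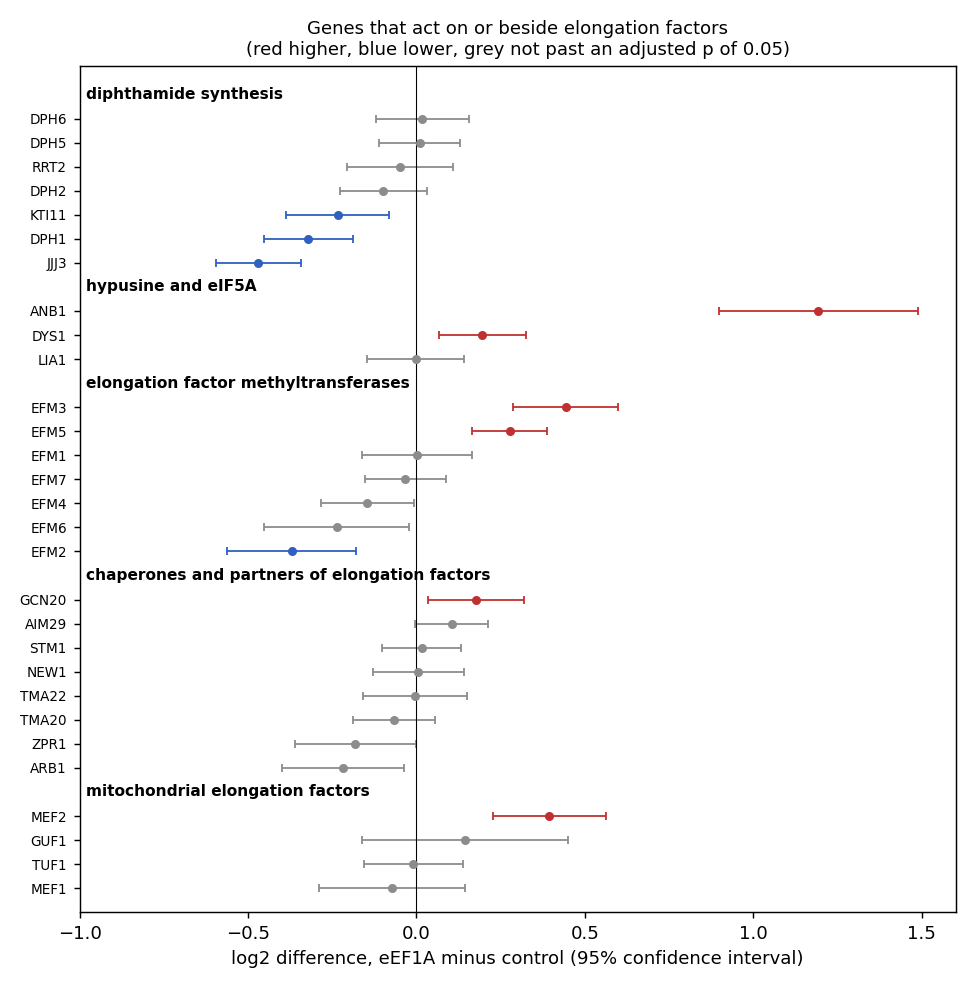
Difference between eEF1A and control cells (log2, horizontal axis) with its 95% confidence interval for the 29 genes that act on or beside elongation factors, grouped by list. Red genes were higher, blue genes lower and grey genes did not pass. ANB1 lies farthest from 0 at 1.19, and the blue genes of diphthamide synthesis are JJJ3, DPH1 and KTI11.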

How the data were processed

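Total RNA was extracted with an RNeasy kit and hybridised to Affymetrix Yeast 2.0 arrays. The authors normalized the arrays with RMA in affylmGUI (RMA version not given in the sources used here) and deposited log2 expression values. Tables of the authors' own comparison, with fold changes, B-statistics and p-values, were not used. Depth is not defined for arrays, and their number limits the precision. Genes were named from the chip annotation, and 5713 probe sets matched a RefSeq R64 table by locus tag. Where a gene has several probe sets, the one with the highest mean was taken.

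Differences were estimated with limma (3.58.1, R 4.3.3) over 5810 *S. cerevisiae* probe sets from a design that held only the group, and p-values were adjusted over 5726 genes (Benjamini-Hochberg). The procedure was tested on simulated arrays, in which far fewer genes changed than were called here. It found 0 of 52 changes of 0.1 on the log2 scale and 20 of 52 of 0.25. Of larger changes it found 34 of 43 of 0.5 and 53 of 53 of 1, with 4 false calls among 5726 genes. Pairs of members were compared by exact permutation of the arrays. Named are all members, from each list up to 4 passing genes with the largest change and up to 2 others with the highest mean, and LEU2. STE2, STE3, TDH1 and RPS29B were added after their values were seen. The gene called in the top level class is not reported here. The members and lists were chosen with earlier results of these data known. Alternatives covered call rule, filter, normalization, moderation, array weights, probe set choice, replicate block and single arrays left out.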

Additional observations from a re-analysis of the deposited data

Results flagged for a closer look

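Of 37 probe sets examined for 1 control array far from the other 3, 2 stood out by Dixon's ratio (the gap to the nearest array over the range of the 4), and chance alone gives about 1 in 20. For CAM1 the ratio was 0.895, with control replicate 3 at 11.88 and the other controls at 11.78 to 11.79. For DPH1 it was 0.858, with control replicate 2 at 10.15 and the others at 10.09 to 10.10.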

How the results depend on the processing

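With both eEF1A arrays kept, the count of members called stayed at 0 except for 3 lower with median centring. Over all genes, 1575 were higher and 884 lower, against 348 and 144 at a B-statistic above 1.5, 773 and 436 with the replicate block, 853 and 461 on the arrays numbered 2 and 3 only, 562 lower with array weights, 1491 lower with quantile normalization and 1451 lower with median centring. Of the listed genes, 6 higher and 4 lower became 1 and 1 by the B-statistic, 3 and 2 with the block, and 7 lower with either normalization. Deviations from the group means hardly correlated between samples of the same replicate number (r = -0.01 for control and eEF1A replicates 2, -0.04 for replicates 3). The deviations of the 2 eEF1A arrays mirror each other, so this check cannot exclude a pairing. The block moved calls to those counts, and it called no member.

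With median centring EFB1 was at -0.13, TEF4 at -0.13, HYP2 at -0.14, CAM1 at -0.017 and TEF1/TEF2 at -0.055. Signs also turned for DPH5 (-0.049), STM1 (-0.043), NEW1 (-0.054) and LEU2 (-0.00022). Quantile normalization turned EFT1/EFT2 (0.0023), DPH5 (-0.0053) and NEW1 (-0.0097), array weights turned LIA1 (0.0080), and both the block and the arrays numbered 2 and 3 only turned NEW1 (-0.039) and TUF1 (0.0043). The causes were not tested.

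With 1 array left out in turn, values ranged as follows, a lone eEF1A array being assumed to vary like the controls. Genes higher ranged from 1189 to 1857, genes lower from 623 to 1234, listed genes higher from 4 to 7 and lower from 3 to 6, and members higher from 0 to 1. Differences ranged from -0.15 to 0.0028 for TEF4, -0.0085 to 0.092 for CAM1, -0.0057 to 0.013 for TEF1/TEF2, -0.045 to 0.032 for EFT1/EFT2, 0.034 to 0.44 for HEF3 and -0.0028 to 0.079 for CAM1 minus TEF1/TEF2. They ranged from -0.0050 to 0.024 for DPH5, -0.090 to 0.086 for LIA1, -0.085 to 0.018 for EFM7, -0.032 to 0.063 for STM1, -0.025 to 0.037 for NEW1, -0.11 to 0.089 for TUF1 and -0.20 to 0.053 for MEF1. Near the top of the scale, the arrays limit what can be read of the members.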
